A study of Mus musculus with 10 samples.

Results

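The proteasome is the barrel-shaped protease that degrades ubiquitin-tagged proteins, and 42 of its genes were followed here in mouse brown adipose tissue. They are the genes whose symbol in the platform annotation is Psma, Psmb, Psmc, Psmd or Psme followed by a number, each read by its brightest probe set, out of 18193 genes measured. Of the 42 genes, 15 encode the core particle, 20 its cap or cap assembly chaperones, 3 the immunoproteasome beta subunits, 3 activators and 1 the thymus-specific beta subunit. The 3 assembly chaperones, Psmd5, Psmd9 and Psmd10, are counted with the cap below. Psme2 was left out, because its probe set is annotated to a further gene as well.

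Expression arrays came from 5 mice labelled Sirt3 knockout (KO) and 5 wild-type (WT) littermates, 1 array per mouse. All were untreated, about 1 year old and of the 129 background; the labels do not describe the knockout allele. Sirt3 encodes a mitochondrial deacetylase. The comparison asks which transcripts differ between the genotypes, here for the machinery of protein breakdown.

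The core particle is a stack of alpha and beta rings, and the beta rings hold the cutting sites. The cap binds ubiquitin chains through non-ATPase subunits, and its ATPase ring unfolds the substrate and feeds it into the core. Interferon gamma induces Psmb8, Psmb9 and Psmb10, which take the places of the standard catalytic subunits Psmb5, Psmb6 and Psmb7 and yield peptides for presentation on MHC class I. The PA28 and PA200 activators open the core in place of the cap. In brown fat, the transcription factor encoded by Nfe2l1 is known to raise proteasome gene expression during cold exposure.

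The standard and inducible catalytic subunits have different sequence upstream of their start sites, which is shown here because both kinds were compared below. The stretches are the 120 bases before the annotated start on the gene's strand, 5′ to 3′, from RefSeq on GRCm38.p6. They lie at chr14:54617996-54618115 for Psmb5 (minus strand), chr17:34198075-34198194 for Psmb8 (plus strand), chr11:70525237-70525356 for Psmb6 (plus strand) and chr17:34187331-34187450 for Psmb9 (minus strand). Capitals mark TGACNNNGC, the core of the antioxidant response element, in Psmb5 and Psmb6, TTCNNNGAA, the gamma interferon activation site, in Psmb8, and CCAAT on the opposite strand in Psmb9.
Psmb5: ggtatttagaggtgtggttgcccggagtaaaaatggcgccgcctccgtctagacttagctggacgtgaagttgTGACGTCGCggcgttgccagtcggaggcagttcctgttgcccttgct
Psmb8: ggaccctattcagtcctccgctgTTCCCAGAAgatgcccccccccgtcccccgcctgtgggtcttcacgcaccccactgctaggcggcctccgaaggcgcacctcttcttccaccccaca
Psmb6: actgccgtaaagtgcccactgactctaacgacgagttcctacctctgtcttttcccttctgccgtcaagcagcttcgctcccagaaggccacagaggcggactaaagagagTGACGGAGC
Psmb9: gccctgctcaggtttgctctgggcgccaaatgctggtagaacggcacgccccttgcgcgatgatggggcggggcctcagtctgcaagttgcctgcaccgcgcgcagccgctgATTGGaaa

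Motif counts in the 250 bases before the start, on both strands, were set beside all promoter windows. Windows were on hand for 35 of the 42 genes, 37 windows in all, and the motifs may overlap each other. TGACNNNGC occurred in 5 of the 37 windows (13.5%), those of Psmb5, Psmb6, Psmc6, Psmd9 and Psmd12, and in 10.2% of all 32851 windows. CCAAT occurred in 14 windows (37.8%, against 33.8% of all). The interferon-stimulated response element occurred in 3 (8.1%, against 3.0%), those of Psmb3, Psmd4 and Psmd9, which are not the inducible subunits. TTCNNNGAA occurred in 1 (2.7%, against 7.0%), that of Psmb8. A match is a run of letters and not a binding site.

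Between any pair of arrays the log2 signals correlated at 0.988 to 0.997 across the probe sets. The Sirt3 probe set went against the labels, at 10.32 ± 0.07 log2 units in arrays labelled KO and 10.13 ± 0.10 in arrays labelled WT (SD, n = 5 each). It was higher by 0.19 ± 0.061 (SE) in arrays labelled KO, with an unadjusted p of 0.0096 and an adjusted p of 0.914 by limma and an exact two-sided permutation p of 0.016. Whether it reads the deleted part of the gene is not known here, and KO and WT below mean arrays so labelled. Brown fat markers were bright, with a list mean from 11.11 to 11.31 in KO arrays and from 11.07 to 11.56 in WT arrays. Skeletal muscle transcripts varied most: their mean over 19 genes was 5.75, 10.97, 5.51, 10.89 and 9.91 in KO arrays 1 to 5, and 10.99, 11.45, 10.98, 9.39 and 7.56 in WT arrays 1 to 5. The 3′ minus 5′ signal of the Pcx control, a sign of RNA quality, was 2.77 to 2.95 in KO arrays and 2.97 to 3.44 in WT arrays, with no overlap. Its part in the differences below was not tested. In bulk tissue, fewer cells of a type and less RNA per cell cannot be told apart.

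No proteasome gene passed the test between arrays labelled KO and WT. By limma, with p-values adjusted over all genes by the Benjamini-Hochberg method, 0 of the 42 had an adjusted p under 0.05, as did 0 of all 18193 genes (0%), and the smallest adjusted p of a member was 0.914. At an unadjusted p under 0.05 there was 1 of 42, Psmd8, while 4.68% of all genes reached that level (1.85% higher and 2.83% lower in KO). The KO and WT values overlapped in all 42 genes; they did not overlap in 0.627% of all genes. The median difference (KO minus WT, log2 units) was 0.0018 over the members, of which 22 were higher and 20 lower, and -0.013 over all genes. All members but Psmd8 differed by less than 0.1 log2 units, and the 95% confidence intervals of those 41 included 0. Across members the intervals lay within -0.263 to 0.466.

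**Figure D1:**
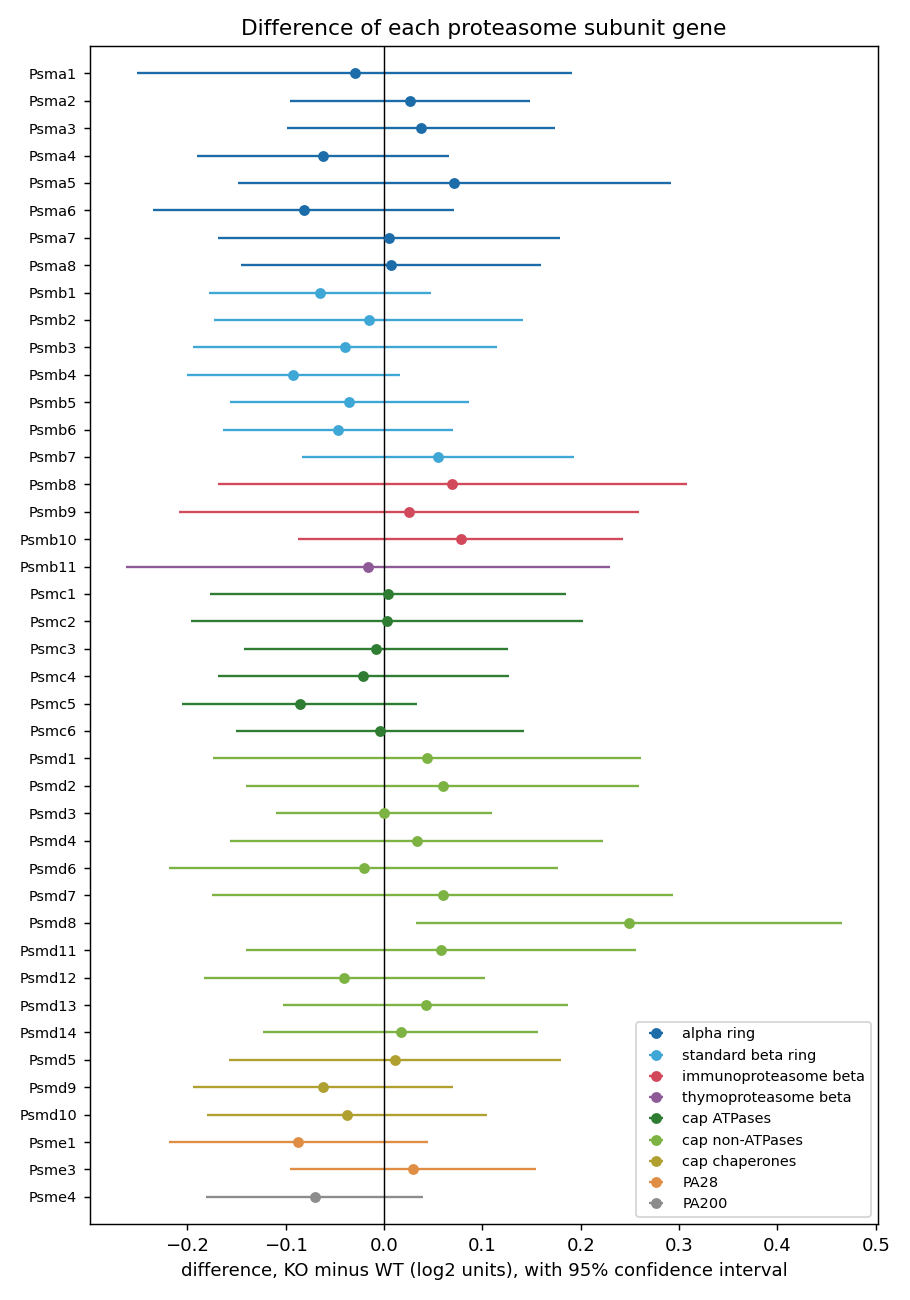
Difference of each of the 42 proteasome subunit genes (KO minus WT, log2 units, horizontal axis) with its 95% confidence interval from limma, coloured by class and ordered by role. The points lie within 0.1 of 0 except Psmd8 at 0.25, whose interval of 0.03 to 0.47 is the only one that leaves out 0.

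The core particle genes were slightly lower on average in KO arrays: 9 of 15 were lower, 0 passed the test, and the median was -0.030 log2 units. The lean was in the standard beta ring, where 6 of 7 genes were lower (median -0.040), while 5 of 8 alpha ring genes were higher (median 0.0063). Over all genes 56.1% were lower, so a lean of this kind is also present in the whole table.

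Psmb4, a structural beta subunit without a cutting site, had the smallest unadjusted p of the core. Its log2 signal was 11.11, 11.20, 11.09, 11.14 and 11.24 in KO arrays 1 to 5, and 11.18, 11.23, 11.30, 11.27 and 11.24 in WT arrays 1 to 5. All KO values lay below the WT mean, but KO 2 and KO 5 overlapped the WT range. The difference was -0.09 ± 0.049 (SE), with an exact two-sided permutation p of 0.048 and an adjusted p of 0.914 by limma. A second, dimmer probe set of Psmb4 gave -0.040.

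The catalytic beta subunits differed less. Psmb5, the chymotrypsin-like subunit, had 10.72, 10.87, 10.64, 10.76 and 10.74 in KO arrays and 10.80, 10.78, 10.86, 10.70 and 10.76 in WT arrays, a difference of -0.04 ± 0.055. Psmb6, the caspase-like subunit, had 10.83, 10.99, 10.86, 10.95 and 10.99 in KO arrays and 10.89, 10.96, 11.04, 10.97 and 11.00 in WT arrays, a difference of -0.05 ± 0.053. Psmb7, the trypsin-like subunit, had 12.15, 12.29, 12.08, 12.26 and 12.24 in KO arrays and 12.20, 12.20, 12.25, 12.02 and 12.08 in WT arrays, a difference of 0.06 ± 0.063. The groups overlapped for each, KO 3 was the lowest KO array for Psmb5 and Psmb7, and WT 3 the highest WT array for all 3. Psmb1, a structural beta subunit, differed by -0.06 ± 0.051, and a second probe set of it gave 0.10. For Psmb2 and Psmb3 the differences were -0.02 and -0.04.

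In the alpha ring, whose subunits form the gate of the core, differences ran from -0.08 (Psma6, ± 0.070) to 0.07 (Psma5, ± 0.10). Psma4 differed by -0.06 ± 0.058 and Psma3 by 0.04 ± 0.062. Psma1, Psma2 and Psma7 differed by -0.03 ± 0.10, 0.03 ± 0.055 and 0.01 ± 0.079. Psma5 varied most over the arrays, with 9.95, 10.31, 9.97, 10.15 and 10.46 in KO arrays and 10.13, 10.16, 10.22, 10.03 and 9.95 in WT arrays. The spread within the KO group was far wider than the difference between the groups. Psma8, an alpha subunit of the testis, had a mean log2 signal of 4.27 in KO arrays and 4.26 in WT arrays. Psmb11, the beta subunit of thymic epithelium, had 5.16 in KO arrays and 5.18 in WT arrays and differed by -0.02 ± 0.11. Both lay below the array medians of 5.58 to 5.61, so how far they stand above background is not known.

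The 3 immunoproteasome genes were each slightly higher on average in KO arrays, with differences from 0.03 to 0.08 log2 units, and none passed the test. Psmb8 had 7.60, 7.43, 7.50, 7.57 and 7.34 in KO arrays and 7.83, 7.37, 7.16, 7.38 and 7.36 in WT arrays, a difference of 0.07 ± 0.11. WT 1 was the highest of all 10 arrays and WT 3 the lowest, so the WT group spanned the whole KO group. The difference was 0.17 ± 0.073 without WT 1, where Psmb8 reached an unadjusted p under 0.05 (adjusted p = 0.843 by limma), and 0.0053 ± 0.10 without WT 3. The mean of both its probe sets gave 0.0006. A second, dim probe set of Psmb8 gave -0.068. Psmb9 had 7.43, 7.20, 7.18, 7.20 and 7.16 in KO arrays and 7.57, 7.28, 7.08, 7.16 and 6.95 in WT arrays, a difference of 0.03 ± 0.11. Array 1 stood highest in both groups. Psmb10 had 8.96, 8.81, 8.99, 9.06 and 8.73 in KO arrays and 8.89, 8.97, 8.75, 8.81 and 8.74 in WT arrays, a difference of 0.08 ± 0.075, with overlapping groups.

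**Figure D2:**
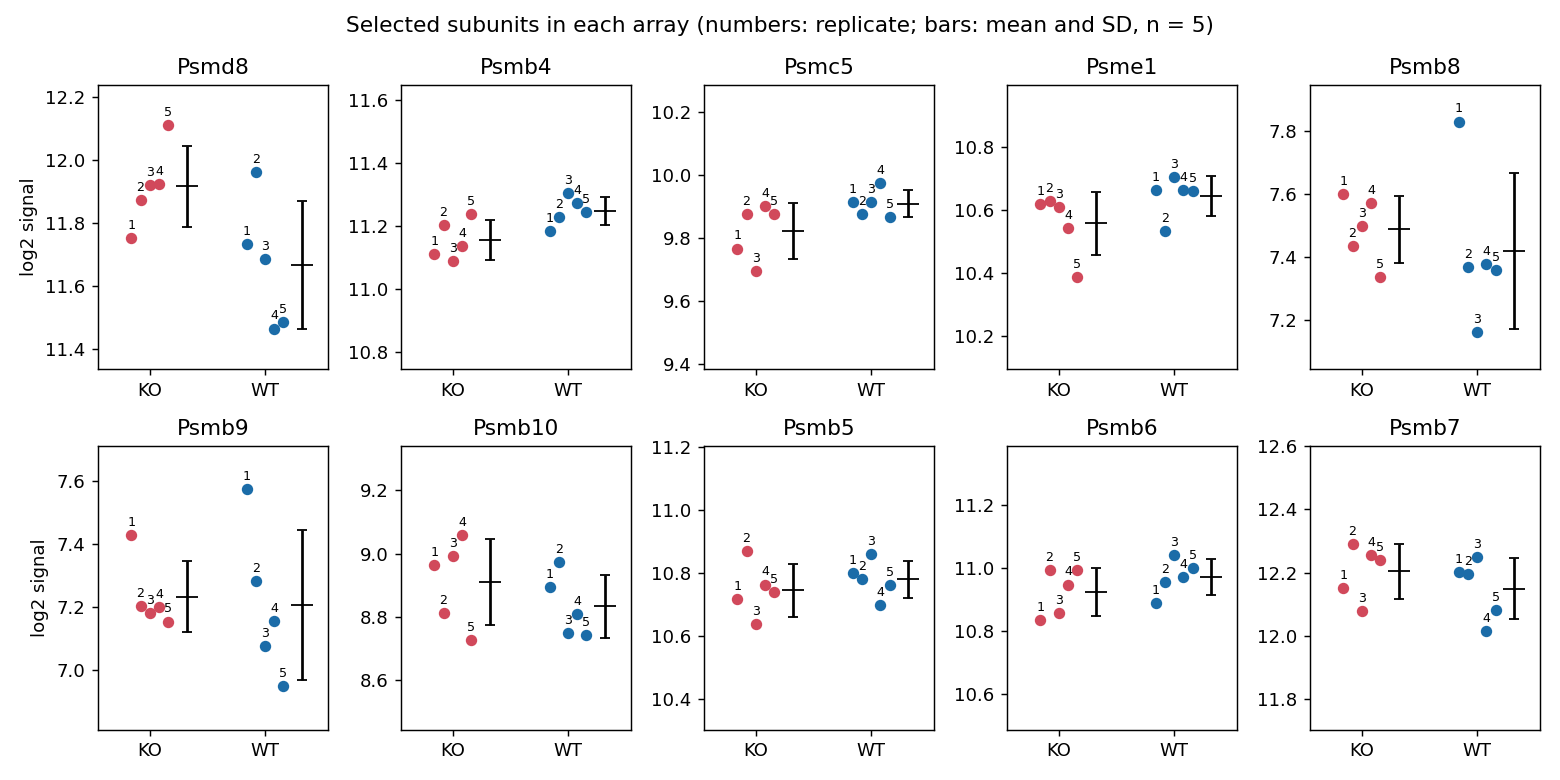
Log2 signal of 10 subunits in each array (vertical axis, the same span of 0.9 log2 units in every panel), KO left and WT right, with replicate numbers; bars give mean and SD (n = 5). KO and WT points overlap in every panel, and WT 1 stands at 7.83 for Psmb8 and 7.57 for Psmb9.

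The arrays read transcripts and not the exchange of subunit proteins in the core. The balance of inducible and standard subunit transcripts was examined within arrays, as the log2 difference between each inducible subunit and its standard counterpart. The KO minus WT change of that measure, with its SE, was 0.10 ± 0.13 for Psmb8 over Psmb5, 0.072 ± 0.15 for Psmb9 over Psmb6 and 0.023 ± 0.10 for Psmb10 over Psmb7. Exact permutation gave two-sided p of 0.45, 0.63 and 0.85 (n = 5 per group), and 0.85 for each after adjustment over the 3 pairs. These pairs were added after the data were seen. No shift was therefore detectable against a spread between arrays of 0.12 to 0.29 (SD).

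Of the genes that surround the immunoproteasome, 12 of 13 listed for MHC class I presentation were measured; 5 were higher and 7 lower (median -0.042), and 0 passed. Interferon-induced genes were higher in 15 of 20 members (median 0.083), and 0 passed. B2m, the light chain of MHC class I, differed by 0.25 ± 0.12, H2-D1, a heavy chain, by 0.17 ± 0.090 and Pdia3, a peptide-loading chaperone, by -0.16 ± 0.084. The mean of the interferon-induced list was 6.35, 6.36, 6.32, 6.57 and 6.18 in KO arrays, and 6.43, 6.26, 6.09, 6.20 and 6.19 in WT arrays. KO 5 was the lowest KO array for it and for all 3 immunoproteasome genes, and WT 1 the highest WT array for it and for Psmb8 and Psmb9. The match was partial: the highest KO array was KO 4 for the list and Psmb10, but KO 1 for Psmb8 and Psmb9. For Psmb10, WT 2 was the highest WT array. Gbp2, a guanylate-binding protein, differed by 0.39 ± 0.18, Bst2 by 0.21 ± 0.099 and the chemokine gene Cxcl10 by 0.42 ± 0.22. Cxcl10 averaged 5.29 in KO arrays and 4.87 in WT arrays, below the array medians of 5.58 to 5.61. Its highest value, 6.23, was in KO 4. Leukocyte markers, 8 of 18 higher (median -0.0066), had a list mean of 6.95 to 7.18 in KO arrays and 6.90 to 7.23 in WT arrays. Those with the smallest unadjusted p were Itgam (-0.23 ± 0.11), Cd79a (-0.12 ± 0.072) and Csf1r (-0.10 ± 0.078). Itgam (4.21 in KO arrays, 4.43 in WT arrays) and Cd79a (4.99 and 5.12) also averaged below the array medians. Endothelial markers were higher in 10 of 12 (median 0.11). The part of these cells in the immunoproteasome signal was not tested.

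The 20 cap genes split into 12 higher and 8 lower around a median of 0.0037 log2 units, and 0 passed the test. Psmd8, a non-ATPase subunit of the lid, which is the outer part of the cap, differed most of all members. Its log2 signal was 11.75, 11.87, 11.92, 11.92 and 12.11 in KO arrays 1 to 5, and 11.73, 11.96, 11.69, 11.47 and 11.49 in WT arrays 1 to 5. Every KO array lay above the WT mean, and WT 2 lay inside the KO range. The difference was 0.25 ± 0.099, a 1.19-fold higher level, with an unadjusted p of 0.028, an adjusted p of 0.914 by limma and an exact permutation p of 0.071 (n = 5 per group). WT 4 and WT 5 held the lowest values, and without them the difference was 0.12 ± 0.093. Psmd8 did not reach an unadjusted p under 0.05 when KO 5, WT 4 or WT 5 alone was left out. The differences were then 0.201 ± 0.0998, 0.199 ± 0.0987 and 0.204 ± 0.101 log2 units. Psmd8 was read by 1 probe set, so no second reading was on hand.

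The other non-ATPase subunits leaned the same way, with 9 of 11 higher (median 0.042) including Psmd8. Psmd2, a base subunit that docks ubiquitin carriers, differed by 0.06 ± 0.091, Psmd11, a lid subunit, by 0.06 ± 0.090 and Psmd13, also of the lid, by 0.04 ± 0.066. Each of these 3 signs turned without WT 4 and WT 5, and 3 further probe sets of Psmd13 gave -0.013, -0.14 and -0.36. Psmd1, the largest base subunit, differed by 0.04 ± 0.099 and varied over 0.53 log2 units between arrays, from the lowest in WT 5 to the highest in WT 2. Psmd4, a ubiquitin receptor, differed by 0.03 ± 0.086, Psmd14, the deubiquitinase of the lid, by 0.02 ± 0.064, and Psmd3 by 0.0003 ± 0.050. The 2 lower non-ATPases were Psmd12 (-0.04 ± 0.065) and Psmd6 (-0.02 ± 0.090). Psmd3 had the narrowest range over arrays of all members, at 0.16 log2 units, and Psmb8 the widest, at 0.67.

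Among the 6 ATPases, which form the unfolding ring, 2 were higher and 4 lower (median -0.0059). Psmc5 had 9.77, 9.88, 9.70, 9.90 and 9.88 in KO arrays and 9.91, 9.88, 9.91, 9.98 and 9.87 in WT arrays. All KO values lay below the WT mean of 9.91, and the groups overlapped; the difference was -0.09 ± 0.054 with an exact permutation p of 0.079. Psmc1 and Psmc2 were the higher ones, by 0.0041 ± 0.083 and 0.0033 ± 0.091, and Psmc4, Psmc3 and Psmc6 differed by -0.02 ± 0.067, -0.01 ± 0.061 and -0.0040 ± 0.067. The assembly chaperones of the cap, Psmd9, Psmd10 and Psmd5, differed by -0.06 ± 0.060, -0.04 ± 0.065 and 0.01 ± 0.077.

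Activators gave a median difference of -0.070, with 2 of 3 lower, and 0 passed. Psme1, the alpha subunit of the interferon-inducible PA28, had 10.62, 10.63, 10.61, 10.54 and 10.39 in KO arrays and 10.66, 10.53, 10.70, 10.66 and 10.66 in WT arrays. All KO values lay below the WT mean, WT 2 lay among them, and the difference was -0.09 ± 0.060 (exact permutation p = 0.13). Psme4, which encodes PA200, had 10.25, 10.32, 10.25, 10.38 and 10.32 in KO arrays and 10.37, 10.44, 10.41, 10.28 and 10.37 in WT arrays, a difference of -0.07 ± 0.050. Psme3, the nuclear PA28 gamma subunit, differed by 0.03 ± 0.057, and a second probe set of it gave -0.032. Of all members, 22 had several probe sets, and in 11 of these at least 1 unused probe set had the opposite sign.

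No gene that builds or regulates the proteasome passed the test either. Of 21 listed assembly and associated factors 18 were measured, 8 higher and 10 lower (median -0.011), and 0 reached an unadjusted p under 0.05. Psmg1, a core assembly chaperone, differed by -0.10 ± 0.055, Akirin2, which brings proteasomes into the nucleus, by 0.11 ± 0.064 and Ube3c, a ubiquitin ligase of the proteasome, by -0.08 ± 0.048. Nfe2l1 itself had 10.47, 10.38, 10.45, 10.46 and 10.32 in KO arrays and 10.53, 10.53, 10.44, 10.45 and 10.44 in WT arrays, a difference of -0.06 ± 0.050 with overlapping groups.

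Among 14 measured regulators of proteasome genes, 5 were higher and 9 lower (median -0.021), and 3 (21.4%, against 4.68% of all genes) reached an unadjusted p under 0.05, with adjusted p of 0.914 by limma for each. Ngly1, which deglycosylates the Nfe2l1 product and so activates it, had 9.94, 10.02, 9.86, 9.89 and 9.94 in KO arrays and 10.04, 9.95, 10.07, 10.26 and 10.11 in WT arrays. Of the WT arrays WT 2 alone lay inside the KO range, and the difference was -0.16 ± 0.063 (exact permutation p = 0.016, n = 5 per group). Mafk, a small Maf partner of Nfe2l1, differed by 0.27 ± 0.12 (exact permutation p = 0.079). Nfyc, a subunit of the CCAAT-binding factor, differed by -0.17 ± 0.074 (exact permutation p = 0.071). Of the 8 ubiquitin and ubiquitin-activating genes listed, 2 were measured, Uba3 at 0.02 ± 0.056 and Uba6 at -0.02 ± 0.067.

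**Figure D3:**
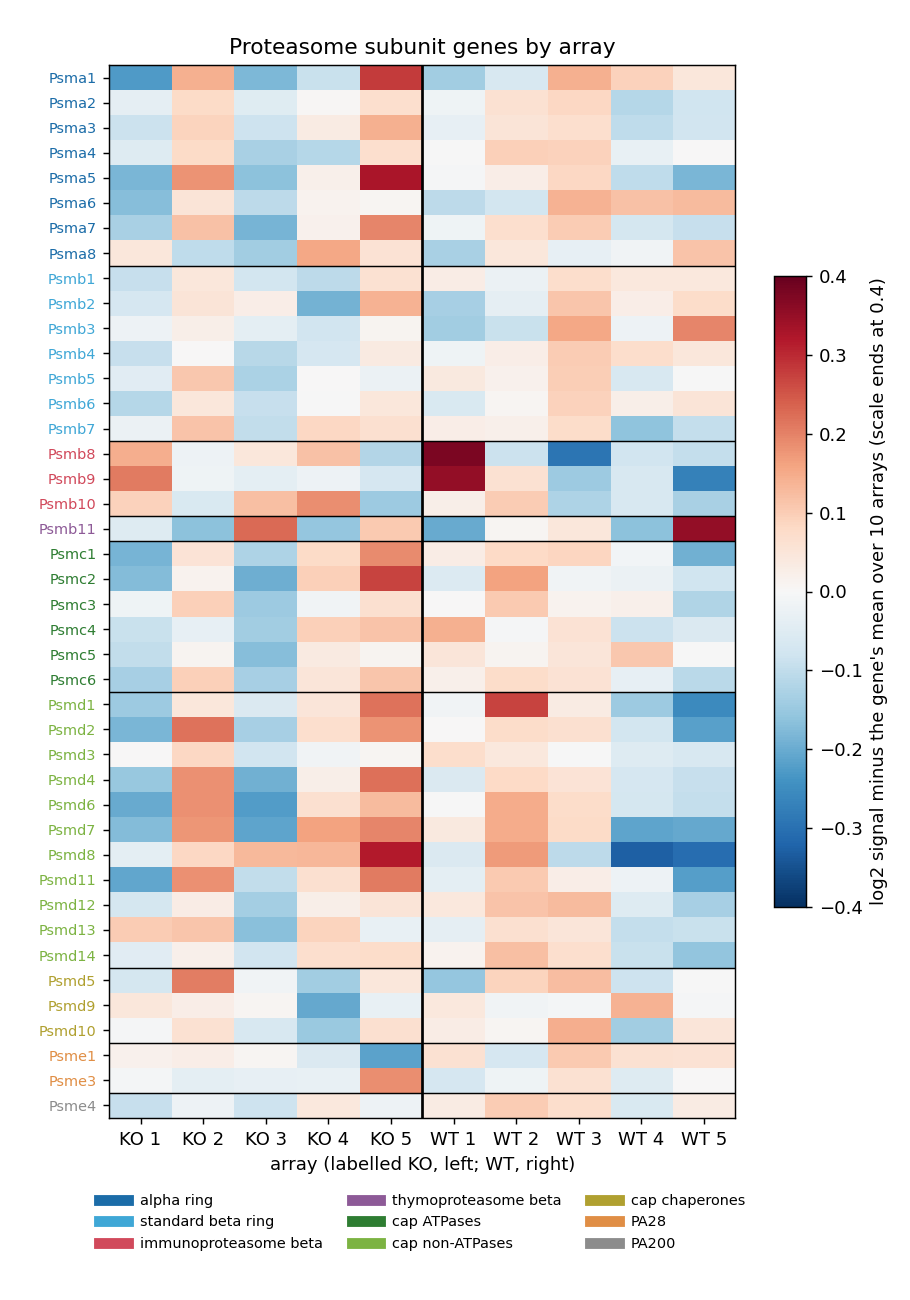
Log2 signal of each of the 42 genes minus its own mean over the 10 arrays (colour, scale to 0.4 log2 units either way), KO arrays left of the line and WT arrays right. Columns KO 1 and KO 3 are blue for most alpha ring and cap genes, KO 5 is red for many of them, and the immunoproteasome rows follow another pattern.

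The arrays differed from each other more than the genotypes did, and most pairs of core and cap genes had correlations above 0. After each group's mean was taken off, the median correlation over the 10 arrays was 0.67 among 14 core genes (91 pairs, without the dim Psma8), 0.65 among 20 cap genes (190 pairs) and 0.56 between core and cap genes. Immunoproteasome genes had a median of 0.54 among themselves (3 pairs), -0.49 with the core genes, where 3 of 42 pairs were above 0, and -0.10 with the cap genes. Without KO 1 and KO 3 these medians were 0.50 (core), 0.55 (cap), 0.29 (core with cap), 0.53, -0.47 and 0.10. The 2 rings of the core differed. With the cap non-ATPases, the standard beta ring had a median of 0.333, and 0.063 without KO 1 and KO 3. The alpha ring had 0.682 and 0.678. Correlations of other gene pairs were not computed, so no background stands beside these values. Genes on the same arrays share RNA and normalization, so these values are descriptions with no test. KO 1 and KO 3 were the lowest KO arrays for 25 of the 42 members (59.5%), among them all 6 ATPases, and for 0 of the 3 immunoproteasome genes; over all genes the share was 10.8%.

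Those arrays were also the ones poorest in skeletal muscle transcripts. The mean deviation of the cap genes from their own means was -0.092, 0.092, -0.11, 0.029 and 0.12 log2 units in KO arrays 1 to 5, and 0.0035, 0.092, 0.049, -0.065 and -0.12 in WT arrays 1 to 5. The negative arrays, KO 1, KO 3, WT 4 and WT 5, were the 4 arrays with the lowest muscle mean. For the core the same measure was -0.086, 0.068, -0.10, -0.021 and 0.099 in KO arrays, and -0.047, 0.0088, 0.092, -0.020 and 0.011 in WT arrays. Here WT 5, poor in muscle transcripts, was above 0 and WT 1, rich in them, below. For the immunoproteasome it was 0.15, -0.033, 0.043, 0.094 and -0.11 in KO arrays, and 0.25, 0.025, -0.19, -0.068 and -0.16 in WT arrays, with no order by muscle transcripts.

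**Figure D4:**
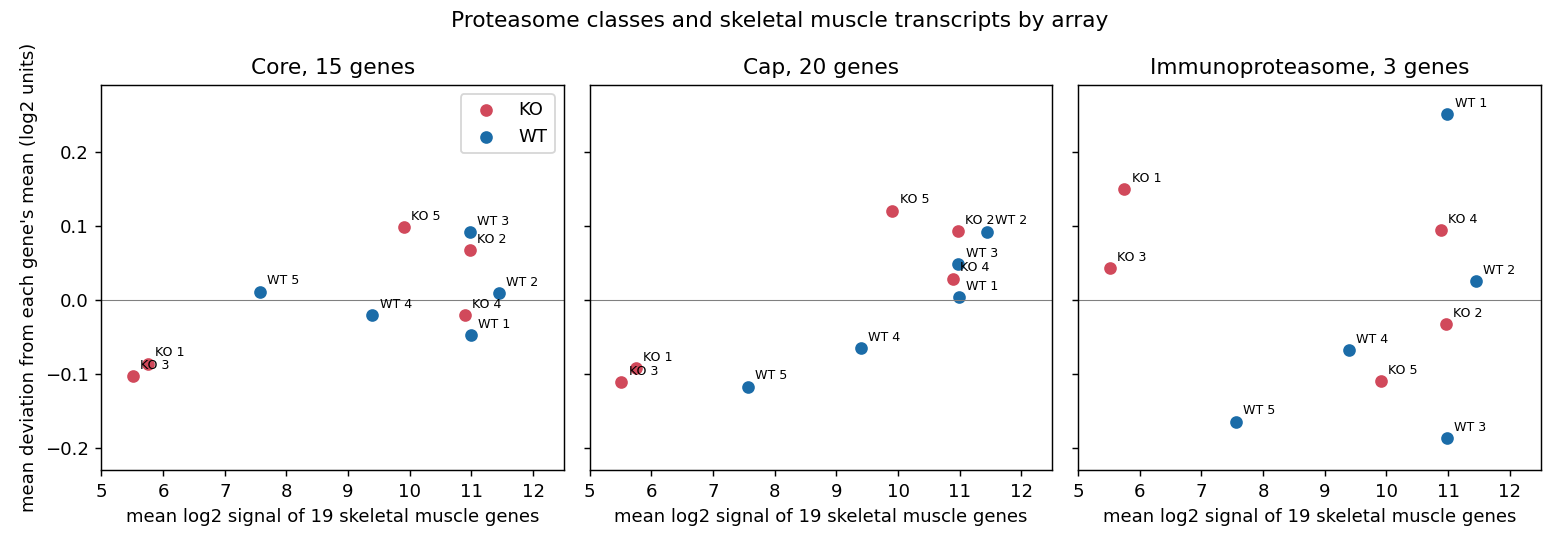
Mean deviation of core, cap and immunoproteasome genes from their own means (vertical axis, log2 units) against the mean log2 signal of 19 skeletal muscle genes (horizontal axis), 1 point per array. Cap points of KO 1, KO 3, WT 5 and WT 4 lie below 0 at the muscle-poor end, while immunoproteasome points show no order.

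Slopes on the muscle mean were fitted for all genes in a limma model that also held genotype; testing the slope was a choice made after the data were seen. The slope is the change in a gene's log2 signal per log2 unit of the muscle mean. It was called at an adjusted p under 0.05 for 3 of the 42 members, all positive, and for 206 of 18174 genes outside the muscle list (1.13%; 187, or 1.03%, with a positive slope). The 3 genes were Psmd7 (0.08 ± 0.014, adjusted p = 0.017), Psmd2 (0.06 ± 0.013, 0.038) and Psmd6 (0.06 ± 0.013, 0.040), all of the cap. Slopes were positive in 35 of 42 members (83.3%), against 41.8% of all genes, and in all 11 non-ATPases (median 0.054), all 6 ATPases (0.038), 8 of 8 alpha genes (0.028), 5 of 7 standard beta genes (0.012) and 1 of 3 immunoproteasome genes (-0.0034). The alpha genes include the dim Psma8, with a slope of 0.0029 ± 0.018.

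Psmd7, a lid subunit, had the smallest adjusted p for the slope among the members. Its values were 8.68, 9.02, 8.64, 9.01 and 9.04 in KO arrays and 8.89, 9.00, 8.92, 8.64 and 8.64 in WT arrays. The values of KO 1, KO 3, WT 4 and WT 5 form a low set, and the other 6 arrays a high one, in both genotypes. They did not rise evenly with the muscle mean: KO 3 and WT 4 both had 8.64, at muscle means of 5.51 and 9.39. Psmd6, another lid subunit, had 10.37, 10.76, 10.35, 10.64 and 10.70 in KO arrays and 10.57, 10.72, 10.65, 10.50 and 10.48 in WT arrays. Without KO 1 and KO 3, 0 members were called, against 1.77% of all genes, with slopes of 0.086 for Psmd7, 0.067 for Psmd2 and 0.051 for Psmd6. Leaving out 1 array at a time gave 0 to 2 called members, beside 138 to 221 called genes of 18174. No member was called without KO 1 (155 genes), without KO 3 (182 genes) or without WT 5 (138 genes). All 11 non-ATPase and all 6 ATPase slopes stayed positive without KO 1 and KO 3. In that fit 5 of 8 alpha, 2 of 7 standard beta and 3 of 3 immunoproteasome slopes were above 0, against 45.6% of all genes. The median slope was then 0.0493 for the immunoproteasome and 0.0415 for the cap. Without WT 5 as well, slopes were above 0 for all 11 non-ATPases, 4 of 6 ATPases and 3 of 3 immunoproteasome genes, against 50.5% of all genes. The part of muscle RNA in the cap signal was not tested.

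**Figure D5:**
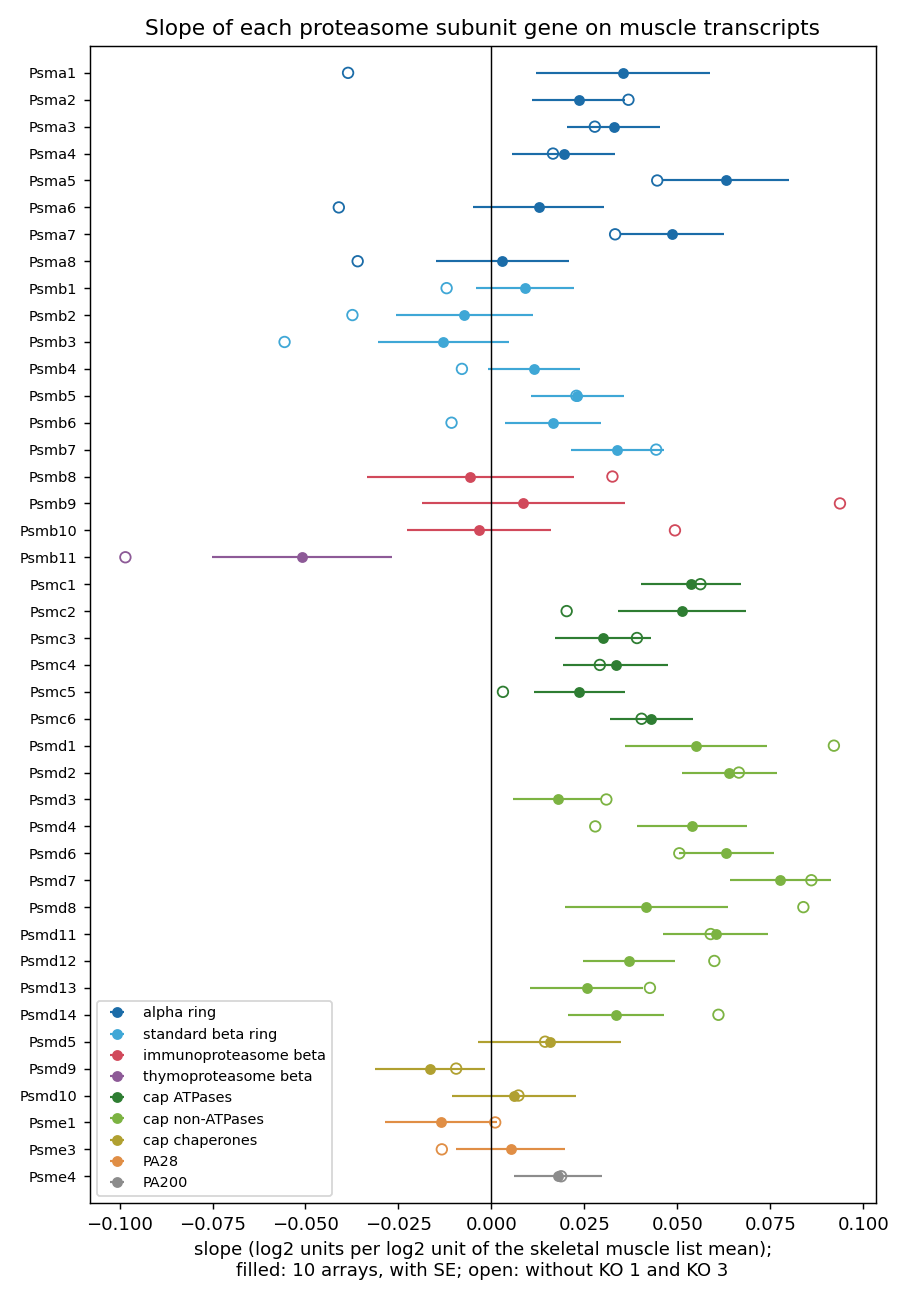
Slope of each of the 42 genes on the muscle mean (horizontal axis, log2 units per log2 unit) with its SE over 10 arrays (filled), and without KO 1 and KO 3 (open). Cap ATPases and non-ATPases lie right of 0 in both fits, whereas several core genes and Psmb8 and Psmb10 of the immunoproteasome change side.

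With the muscle mean as a covariate, the genotype difference of the cap was larger but still passed for 0 members. The median over the 20 cap genes was 0.069 log2 units with 17 higher, against 0.0037 without the covariate, and all 11 non-ATPases were higher (median 0.11). At an unadjusted p under 0.05 there were 5 members, Psmd8 (0.31 ± 0.094), Psmd7 (0.17 ± 0.058), Psmd2 (0.15 ± 0.055), Psmd11 (0.15 ± 0.061) and Psma5 (0.16 ± 0.073), or 11.9% of members, while 8.28% of all genes reached that level. Core and immunoproteasome medians were -0.0011 and 0.061 in that fit. The muscle mean itself averaged 8.61 in KO arrays and 10.08 in WT arrays, and KO 1 and KO 3 held the lowest values.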

How the data were processed

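Total RNA of brown adipose tissue was hybridised to 1 single-colour Affymetrix array per mouse, 5 labelled KO and 5 WT. The deposited values are log2 signals made by the authors with RMA, per the submitters' processing notes; no source used here names the software or its settings. RMA equalises arrays, so a shift of all transcripts would not show, and the number of arrays limits precision. Of 45101 probe sets, 34945 had 1 annotated gene (34741 matched to RefSeq GRCm38.p6 by gene ID), 932 had several, 9160 had none and 64 were controls. Each of 18193 genes was read by its brightest probe set over all 10 arrays.

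Groups were compared with limma 3.58.1 in R 4.3.3 (lmFit, eBayes), two-sided, with Benjamini-Hochberg adjustment over all genes and a threshold of 0.05, after the procedure was tested on simulated data. Errors after ± are SE for differences and SD for means. Exact permutation used all 252 choices of 5 arrays, whose smallest two-sided p is 0.0079. The labels name mice, and p-values measure the spread between them.

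Named members are the 4 with the smallest unadjusted p in each class, plus the catalytic pairs and Psme1; the remaining members were named after their values were seen. Members and lists were chosen with earlier results of these data known. Alternatives covered normalization, probe set choice, variance model, a filter on dim genes, array weights, a muscle covariate, a replicate block and left-out arrays. The main comparison did not pair samples by replicate number, and the correlations of same-numbered samples given below cannot show whether the numbers mark pairs.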

Additional observations from a re-analysis of the deposited data

Results flagged for a closer look

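In 4 of 84 groups of 5 arrays, 1 array stood apart from the other 4 by more of the group's range than Dixon's 95% critical value of 0.71 allows; chance gives about 1 such group in 20. Psmb9, an inducible catalytic subunit, had 7.43 log2 units in KO 1, the highest of its group, and 7.16 to 7.20 in the other KO arrays. Psme3, the nuclear PA28 gamma subunit, had 9.04 in KO 5 and 8.81 to 8.84 in the other KO arrays. Psmc2, an ATPase of the cap, had 10.82 in WT 2 and 10.58 to 10.65 in the other WT arrays. Psme1, the PA28 alpha subunit, had 10.53 in WT 2, the lowest of its group, and 10.66 to 10.70 in the other WT arrays.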

How the results depend on the processing

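No member and no gene reached an adjusted p under 0.05 under any of the 22 alternatives run. Members at an unadjusted p under 0.05 numbered 1 as reported, 2 without probe sets whose names end in _s_at, _x_at or _a_at, which left 36 members (Psmd8 and Psmd13), 0 with the replicate block, 5 with the muscle covariate, 0 without WT 4 and WT 5, 0 without WT 5, KO 1 and KO 3, and 3 without KO 1 and KO 3 (Psmd2, Psmd8 and Psma5, an alternative added after the data were seen). Leaving out 1 array gave 0 to 2, and 2 without WT 1 (Psmb8 and Psmd8). Genes at that level numbered 851 as reported, 1506 with the muscle covariate, 736 with the replicate block and 611 to 1418 with 1 array left out. Same-numbered samples did not deviate together (correlations from -0.395 to 0.236).

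The activator median of -0.070 moved to -0.0185 with the mean of all probe sets, -0.0433 without those probe sets, -0.0356 without WT 5, KO 1 and KO 3 and -0.0353 without KO 1 and KO 3. With 1 array left out, class medians ranged from -0.051 to -0.000154 (core), -0.0211 to 0.0342 (cap), 0.0053 to 0.117 (immunoproteasome) and -0.0834 to -0.0447 (activators). The core median turned positive with renewed quantile normalization (0.00373), without WT 5, KO 1 and KO 3 (0.0134) and without KO 1 and KO 3 (0.0103). It was below 0 under all other alternatives. The cap median ran from -0.0482 (without WT 4 and WT 5) to 0.0808 (without KO 1 and KO 3). Members with a called slope on the muscle mean numbered 3 as reported, 0 without KO 1 and KO 3, 0 without WT 5, KO 1 and KO 3, and 0 to 2 with 1 array left out; the cause was not tested, and fewer arrays entered those fits.

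Of 27 named members, 10 kept 1 sign in every value that could be computed and 17 turned, in 52 of 590 values. Without _s_at, _x_at and _a_at sets there was no value for Psmb5, Psmb8 or Psmd10, and with dim genes left out none for Psmb11; the other Psmb8 probe set, not among these values on its own, gave -0.068. Without WT 4 and WT 5 the differences were -0.00903 for Psma3, -0.0117 for Psmb7, -0.0771 for Psmb9, 0.0408 for Psmb11, -0.0163 for Psmd2, -0.00253 for Psmd11, -0.00393 for Psmd13 and -0.0135 for Psmd5. Without WT 5, KO 1 and KO 3 they were 0.0055 for Psma6, 0.00547 for Psmb5, 0.0134 for Psmb6, -0.0868 for Psmb9, 0.00599 for Psmb11, 0.0132 for Psmc3, 0.0311 for Psmc4 and 0.0555 for Psmc6. Without KO 1 and KO 3 they were 0.0103 for Psmb5, 0.00655 for Psmb6, -0.0223 for Psmb9, 0.044 for Psmc3, 0.0481 for Psmc4 and 0.0831 for Psmc6. The muscle covariate gave 0.0363 for Psmc3, 0.0283 for Psmc4 and 0.0591 for Psmc6; renewed quantile normalization gave 0.00819 for Psmc3 and 0.0071 for Psmc6; array weights gave -0.013 for Psmd5. Other probe sets gave 0.102 for Psmb1 and -0.357 for Psmd13 (no _s_at, _x_at or _a_at sets), and -0.00628 for Psmd11 and -0.117 for Psmd13 (mean of sets). With 1 array left out, signs turned within -0.00091 to 0.126 for Psma5, -0.0388 to 0.117 for Psmb9, -0.0752 to 0.0698 for Psmb11, -0.0386 to 0.0275 for Psmc3, -0.0517 to 0.0123 for Psmc4, -0.0319 to 0.0287 for Psmc6, -0.0389 to 0.0468 for Psmd5 and -0.0127 to 0.0486 for Psme3. The cause of these turns was not tested.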

Other observations

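Lists of other tissue transcripts gave these values beside the proteasome genes. Each of 19 skeletal muscle genes had a lower mean in KO arrays (median difference -1.61 log2 units), and 0 passed the limma test or reached an unadjusted p under 0.05. Of 5 measured muscle ubiquitin ligase genes, 1 was higher and 4 were lower (median -0.26), and 0 passed; Fbxo32, the atrogin ligase of wasting muscle, differed by -0.26 ± 0.15 (SE). Brown adipocyte markers were higher in 3 of 14 and lower in 11 (median -0.065), and 0 passed; the adipokine gene Adipoq differed by -0.14 ± 0.059.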
